A study of Homo sapiens with 2 samples.

Results

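Enzymes of pyrimidine and deoxynucleotide synthesis were followed as a set of 10 genes, taken by symbol from a table of 20289 genes. The set was split by role into 5 genes of the de novo pyrimidine route (CAD, DHODH, UMPS, CTPS1 and CTPS2) and 5 genes that make or recycle deoxynucleotides (RRM1, RRM2, RRM2B, TYMS and TK1). All 10 were in the table once each, and all 10 passed the floor of 50 counts, as a mean of both libraries, that 11530 genes passed. Poly(A) RNA came from MDA-MB-231, a human cell line of triple-negative breast cancer that has a mesenchymal character and mutant p53. There was 1 library from cells given an siRNA against the long non-coding RNA USP30-AS1 (19569214 counts) and 1 from cells that got a negative control siRNA (23287817 counts), and the labels name no other agent. With 1 library a group there is no test between the groups, and each difference below is a difference between these libraries. Intervals are 95% and cover counting error alone, not the variation from culture to culture. The targeted RNA was not analysed here, and these values do not show the depth of the knockdown.

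Cells build pyrimidines from glutamine, bicarbonate and aspartate. CAD catalyses the opening steps, DHODH in the inner mitochondrial membrane oxidises dihydroorotate and passes the electrons to ubiquinone, UMPS makes UMP, and CTP synthase (CTPS1 or CTPS2) aminates UTP to CTP. Ribonucleotide reductase then turns ribonucleoside diphosphates into deoxynucleotides. Its catalytic subunit RRM1 pairs with RRM2, which is made in S phase, or with RRM2B, which is induced by p53 and serves cells outside S phase. Thymidylate synthase (TYMS) methylates dUMP to dTMP, and thymidine kinase TK1 recovers thymidine in the cytosol. Tumour lines that divide quickly depend on these routes, and several of the enzymes are targets of antimetabolite drugs.

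The cells carried the markers of their line. VIM had 1190 FPKM in the USP30-AS1 siRNA library and 840 FPKM in the control siRNA library, and EGFR had 46.6 FPKM with the USP30-AS1 siRNA and 35.5 FPKM with the control siRNA. The listed markers that this line lacks or keeps low (ESR1, PGR, CDH1, EPCAM, KRT5 and GATA3) summed to 141 counts with the USP30-AS1 siRNA and 186 with the control siRNA. PGR had 0 counts in both libraries. The 6 leukocyte markers summed to 46 counts with the USP30-AS1 siRNA and 48 with the control siRNA, and CD3E was at 0 in both. The 6 fibroblast markers summed to 540 counts with the USP30-AS1 siRNA and 825 with the control siRNA, nearly all from COL1A1 and PDGFRB, with DCN and LUM at 0. The 6 endothelial markers summed to 159 counts with the USP30-AS1 siRNA and 340 with the control siRNA, mostly from PECAM1, with 128 counts with the USP30-AS1 siRNA and 226 with the control siRNA, and CDH5, with 8 counts with the USP30-AS1 siRNA and 91 with the control siRNA. The part of these markers in the differences below was not tested.

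The deoxynucleotide enzymes were higher with the USP30-AS1 siRNA than with the control siRNA for RRM1, RRM2 and TK1, lower for RRM2B, and with a log2 ratio near 0 for TYMS. In bulk RNA, more cells in S phase and more RNA per cell cannot be told apart. The de novo enzymes were divided, with UMPS and CTPS1 higher, DHODH and CTPS2 lower, and the ratio of CAD near 0. None of the 10 genes differed by 2-fold. Over all 11530 compared genes, 1.55% were higher and 1.6% lower by at least 2-fold. With a 1.5-fold rule the count of members was again 0, where 6.1% of all genes were higher and 7.04% lower, and 86.9% of all genes lay within 1.5-fold as all 10 members did. Among the 9044 genes whose mean counts lay in the range of the members, 89.2% were within 1.5-fold. A set of this size within 1.5-fold is therefore close to the background. The closest to that limit was RRM2, and by the deposited FPKM (the authors' value per transcript length and library size) DHODH passed it.

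The median log2 ratio was 0.22 for the 5 deoxynucleotide genes and 0.02 for the 5 de novo genes, a difference of 0.20, beside -0.00365 for all genes compared. Here and below, log2 ratios are USP30-AS1 siRNA over control siRNA, from CPM (counts scaled to library size) with 0.5 CPM added. Folds and all counting intervals come from scaled counts with nothing added. For genes with few counts, a fold therefore lies somewhat further from no change than its log2 ratio. Summed over each group, the deoxynucleotide genes had 17927 counts with the USP30-AS1 siRNA and 18122 with the control siRNA, 1.22-fold higher after scaling (interval 1.19 to 1.24). The de novo genes had 7030 counts with the USP30-AS1 siRNA and 8175 with the control siRNA, 1.06-fold higher (1.03 to 1.09). These intervals do not cover the choice of scaling, which matters for a difference as small as that of the de novo sum. In FPKM the de novo genes summed to 85.2 with the USP30-AS1 siRNA and 84.4 with the control siRNA. The deoxynucleotide genes summed to 384 FPKM with the USP30-AS1 siRNA and 338 FPKM with the control siRNA. CAD gave the most counts to the de novo sum, and RRM1 and RRM2 to the deoxynucleotide sum. Both groups held members on either side of 0. The de novo median is the value of CAD, and its sign was not stable: it was -0.03 when only the library totals were used and -0.03 in FPKM. The median of the deoxynucleotide group is the value of TK1.

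**Figure D1:**
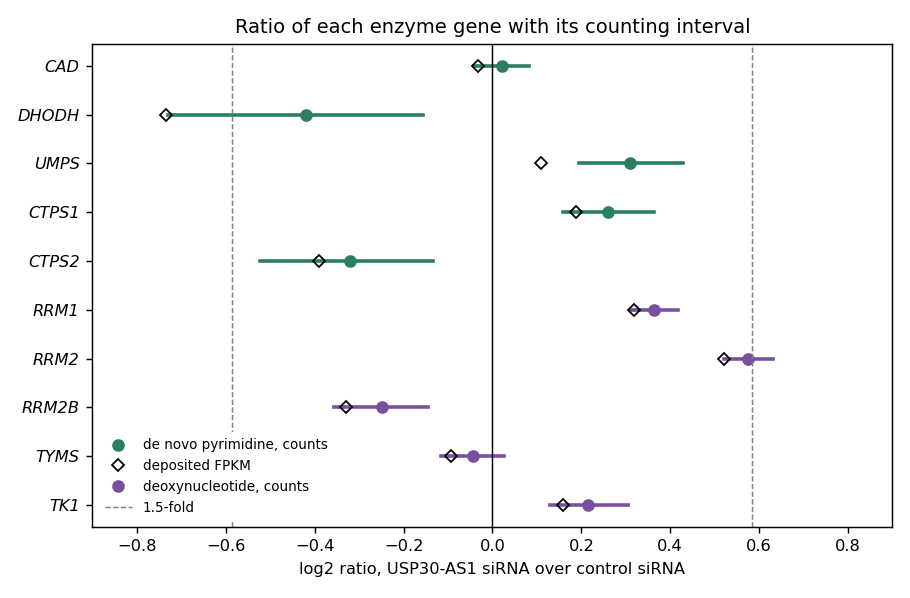
Log2 ratio (USP30-AS1 siRNA over control siRNA) of each of the 10 genes, from scaled counts (filled points, lines are 95% counting intervals) and from the deposited FPKM (open diamonds). RRM2 is highest at 0.57 and DHODH lowest at -0.42, and the FPKM value of UMPS lies outside its counting interval, as do those of DHODH and RRM2 by a small margin.

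The small-subunit genes of ribonucleotide reductase, RRM2 and RRM2B, lay on opposite sides of 0. RRM2, the S phase small subunit (chromosome 2, 10120698 to 10131419, plus strand, GRCh38), had 5808 counts and 91.6 FPKM with the USP30-AS1 siRNA, against 4796 counts and 63.9 FPKM with the control siRNA. It was 1.49-fold higher (1.43 to 1.55), and 6.30% of compared genes had a ratio at least as high. RRM1, the catalytic subunit (chromosome 11, 4094707 to 4138876, plus strand), had 5942 counts and 96.8 FPKM with the USP30-AS1 siRNA and 5681 counts and 77.6 FPKM with the control siRNA. RRM1 was 1.29-fold higher (1.24 to 1.34), a ratio that 14.4% of compared genes reached. RRM2B, the p53-inducible small subunit (chromosome 8, 102204502 to 102239118, minus strand), had 1244 counts and 17.2 FPKM with the USP30-AS1 siRNA, against 1822 counts and 21.6 FPKM with the control siRNA, and was 1.19-fold lower (1.11 to 1.28). RRM2B was thus the only ribonucleotide reductase gene of the 3 below 0. Per length, RRM2 stood at 0.947 of RRM1 in the USP30-AS1 siRNA library and at 0.823 in the control siRNA library.

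The thymidylate genes differed less. TK1, cytosolic thymidine kinase (chromosome 17, 78174075 to 78187233, minus strand), had 2089 counts and 88.0 FPKM with the USP30-AS1 siRNA, against 2212 counts and 78.8 FPKM with the control siRNA, 1.16-fold higher (1.09 to 1.23). TYMS (chromosome 18, 657604 to 673578, plus strand) had 2844 counts and 90.1 FPKM with the USP30-AS1 siRNA, against 3611 counts and 96.1 FPKM with the control siRNA. Its log2 ratio of -0.04 had an interval of -0.12 to 0.03, so no difference was detectable for TYMS at this depth. Of the 2470 annotated exonic bases of TYMS, 967 also lie in exons of ENOSF1, a gene on the opposite strand. The deposited TYMS counts were not whole (2844.24 with the USP30-AS1 siRNA and 3610.9 with the control siRNA), unlike those of the other members, and whether the counting used strand was not stated in the sources used here. ENOSF1 had 272 counts with the USP30-AS1 siRNA and 373 with the control siRNA (log2 ratio -0.15). How reads from the shared bases were divided between the genes was not tested.

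Promoter windows of 250 bases before to 50 after a start site were taken from RefSeq (GRCh38.p14) for 9 of the 10 members, 13 windows in all. No window of RRM2B was searched, so the statements on motifs do not cover it. Those of RRM2 and TK1, which had higher ratios, are shown beside TYMS and DHODH, which did not. Capitals mark matches to the CCAAT box (CCAAT or, on the other strand, ATTGG), the E-box (CACGTG) or the E2F motif (TTTCCCGC, TTTCGCGC, TTTGCCGC, TTTGGCGC or a reverse complement such as GCGGGAAA), on either strand.
RRM2 (chr2:10122489-10122788, plus strand): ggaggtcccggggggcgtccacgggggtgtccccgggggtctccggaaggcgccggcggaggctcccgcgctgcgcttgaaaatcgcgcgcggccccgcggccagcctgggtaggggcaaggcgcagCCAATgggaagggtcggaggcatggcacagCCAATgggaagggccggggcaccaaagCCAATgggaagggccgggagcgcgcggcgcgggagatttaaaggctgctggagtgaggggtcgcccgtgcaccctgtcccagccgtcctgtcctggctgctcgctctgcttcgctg
TK1 (chr17:78187003-78187302, minus strand): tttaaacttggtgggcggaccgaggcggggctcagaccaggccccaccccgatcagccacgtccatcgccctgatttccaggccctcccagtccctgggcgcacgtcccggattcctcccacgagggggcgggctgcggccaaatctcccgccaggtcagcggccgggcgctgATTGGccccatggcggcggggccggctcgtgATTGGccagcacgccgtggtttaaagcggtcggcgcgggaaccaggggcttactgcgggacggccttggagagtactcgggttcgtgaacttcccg
TYMS (chr18:657403-657702, plus strand): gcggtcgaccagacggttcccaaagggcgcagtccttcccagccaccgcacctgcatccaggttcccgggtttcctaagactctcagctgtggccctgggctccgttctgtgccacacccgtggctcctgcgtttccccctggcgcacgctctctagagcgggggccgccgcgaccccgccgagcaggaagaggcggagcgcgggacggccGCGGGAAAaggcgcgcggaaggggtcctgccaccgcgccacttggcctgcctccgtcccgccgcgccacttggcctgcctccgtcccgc
DHODH (chr16:72008494-72008793, plus strand): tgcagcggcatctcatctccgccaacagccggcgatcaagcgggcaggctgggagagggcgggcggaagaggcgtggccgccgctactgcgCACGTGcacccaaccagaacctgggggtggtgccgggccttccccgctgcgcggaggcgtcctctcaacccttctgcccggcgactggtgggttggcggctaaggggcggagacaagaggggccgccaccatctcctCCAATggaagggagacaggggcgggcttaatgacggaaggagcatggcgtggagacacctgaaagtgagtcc

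The shown RRM2 window held 3 CCAAT boxes, each followed by the same run of bases, with first bases at -123, -93 and -66 from the start site. At least 3 were found in 3.26% of 34943 RefSeq promoter windows. The shown TK1 window held 2 CCAAT boxes on the reverse strand, at -77 and -46, and 10.8% of windows held at least 2. The other TK1 window held 0, and the other RRM2 window held 1. UMPS and CTPS1, which also had higher ratios, held no match to any of these motifs. RRM1, CAD and DHODH held 1 CCAAT box each, so that 5 of the 9 members had at least 1 in any of their windows. Of all single windows, 34.6% held at least 1. These shares are not like for like, since some members had more than 1 window. The only E2F match was in TYMS (3.30% of windows) and the only E-box in DHODH (7.23% of windows). These letters were found in genes above, near and below 0, and a match is not a measurement of binding.

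**Figure D2:**
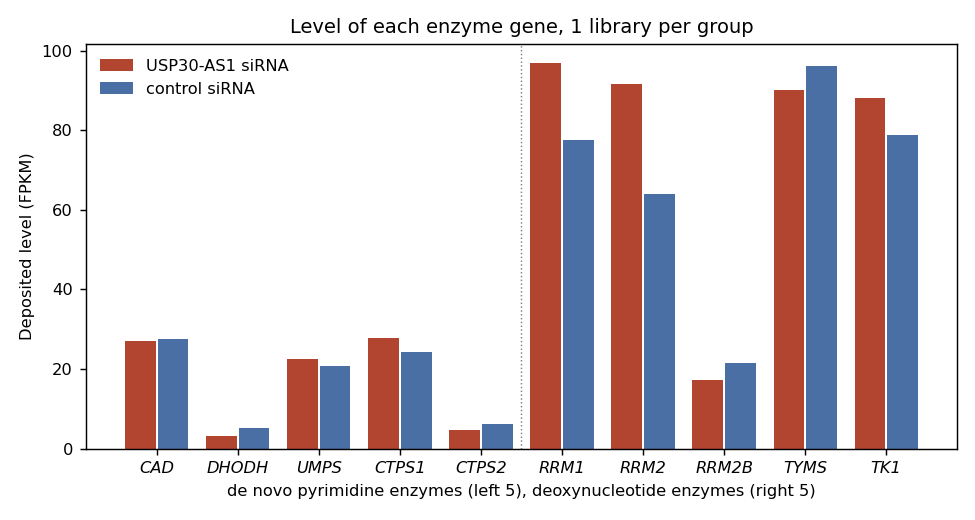
Deposited level (FPKM, y axis) of each gene in the USP30-AS1 siRNA library (left bar) and the control siRNA library (right bar), 1 library each. RRM1, RRM2, TYMS and TK1 lie between 63.9 and 96.8 FPKM in both libraries, and CTPS2 and DHODH at 6.27 FPKM or less.

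Among the de novo genes, UMPS, which makes UMP (chromosome 3, 124730366 to 124749273, plus strand), had 1202 counts and 22.5 FPKM with the USP30-AS1 siRNA, against 1192 counts and 20.8 FPKM with the control siRNA. After scaling UMPS was 1.24-fold higher (1.14 to 1.35), but in FPKM only 1.08-fold higher, outside that interval. CTPS1 (chromosome 1, 40979335 to 41012565, plus strand), the CTP synthase that dividing lymphocytes need, had 1514 counts and 27.8 FPKM with the USP30-AS1 siRNA, against 1555 counts and 24.4 FPKM with the control siRNA, 1.20-fold higher (1.12 to 1.29). CTPS2 (chromosome X, 16588003 to 16712936, minus strand), its paralogue, had 358 counts and 4.78 FPKM with the USP30-AS1 siRNA, against 553 counts and 6.27 FPKM with the control siRNA, 1.25-fold lower (1.10 to 1.44). The intervals of these paralogues lay on opposite sides of 0.

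DHODH, the mitochondrial step of the route, was the lowest member of this group, and CAD, which feeds it, lay in the middle. DHODH (chromosome 16, 72008588 to 72027664, plus strand) had 164 counts and 3.19 FPKM with the USP30-AS1 siRNA, against 274 counts and 5.31 FPKM with the control siRNA. It was 1.36-fold lower (1.11 to 1.66), and 13.1% of compared genes had a ratio at least as low. In FPKM its log2 ratio was -0.73, past 1.5-fold, as for 9.19% of compared genes in that unit. DHODH was the least abundant member, which makes its interval the widest of the 10. CAD (chromosome 2, 27217390 to 27243943, plus strand) had 3792 counts and 27.0 FPKM with the USP30-AS1 siRNA, against 4601 counts and 27.6 FPKM with the control siRNA, with a log2 ratio of 0.02 and an interval of -0.04 to 0.08. Per length, CAD stood 8.45-fold above DHODH with the USP30-AS1 siRNA and 5.19-fold above it with the control siRNA.

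The order of levels within each library was similar. Per length in FPKM, RRM1, RRM2, TYMS and TK1 were the highest 4 in both libraries, above 93.7% of the table's genes in each. CTPS1, CAD, UMPS and RRM2B followed between 17.2 and 27.8 FPKM, and CTPS2 and DHODH were last. The top place went to RRM1 with the USP30-AS1 siRNA (96.8 FPKM) and to TYMS with the control siRNA (96.1 FPKM). With 1 library each, no spread is available to order neighbours in this list.

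Pairs of isozymes can be compared within a library, where the library size does not enter. RRM2 made up 82.4% of the counts of RRM2 and RRM2B with the USP30-AS1 siRNA (Wilson interval 81.5 to 83.2), against 72.5% with the control siRNA (71.4 to 73.5). CTPS1 made up 80.9% of the counts of both CTP synthases with the USP30-AS1 siRNA (79.0 to 82.6), against 73.8% with the control siRNA (71.8 to 75.6). TK1 made up 83.0% of the counts of TK1 and the mitochondrial kinase TK2 with the USP30-AS1 siRNA (81.5 to 84.4), against 72.4% with the control siRNA (70.8 to 74.0). In these 3 pairs the more abundant isozyme had the higher share with the USP30-AS1 siRNA. The intervals cover counting error only, and how often the shares of other gene pairs differ by as much between these libraries was not measured. Counts weigh long transcripts more, and by FPKM RRM2 stood 5.32-fold above RRM2B with the USP30-AS1 siRNA and 2.95-fold above it with the control siRNA. CTPS1 stood 5.82-fold above CTPS2 with the USP30-AS1 siRNA and 3.89-fold with the control siRNA. TK1 stood 9.08-fold above TK2 with the USP30-AS1 siRNA and 5.35-fold with the control siRNA. TK2 had 428 counts with the USP30-AS1 siRNA and 843 with the control siRNA, 1.6-fold lower (1.42 to 1.80) on the scaled counts, a larger difference than that of TK1.

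**Figure D3:**
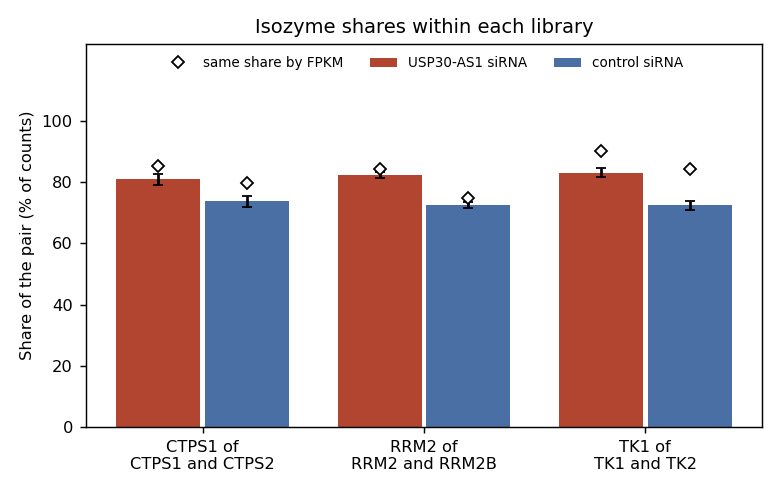
Share of CTPS1, RRM2 and TK1 in the counts of its pair (%, y axis), with the USP30-AS1 siRNA (left bar) and the control siRNA (right bar); error bars are 95% Wilson intervals and diamonds the same share by FPKM. Each left bar lies at 80.9% or above and each right bar at 73.8% or below.

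Read sharing with similar sequences bears on some members. In annotated transcripts, no stretch of at least 100 bases at 90% identity or more was shared with another gene by CAD, CTPS1, CTPS2, RRM1, RRM2B or TK1. For CTPS1 against CTPS2 and RRM2 against RRM2B, no such shared stretch was found. RRM2 shared 1079 identical bases with AC007240.1, an overlapping gene on the same strand, and 1171 bases at 94.5% identity with the processed pseudogene RRM2P3. Neither gene is among those deposited, and the deposited RRM2 counts were whole in both libraries. How reads from these stretches were assigned was not tested, and the RRM2 value is uncertain to that extent. The longest transcripts of DHODH and UMPS held stretches that recur in 32 and 11 other genes, and these are the members whose FPKM and count ratios differed most. The part of such stretches in that difference was not tested.

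Other genes of nucleotide metabolism gave a mixed picture. Over all 11530 compared genes, 49.6% had a log2 ratio above 0. Of 47 listed genes outside the 10 members, 36 passed the floor. None was 2-fold different, 2 were higher and 1 lower by 1.5-fold or more, and their median log2 ratio was -0.03. Among kinases that pass phosphates along the route, 4 of 7 lay above 0 (median 0.19), with NME4 at 0.39, NME6 at -0.51 and NME1 at 0.37. The NME1 value is uncertain, since NME1 has a close paralogue, NME2, and a read-through entry. In salvage, 3 of 7 lay above 0 (median -0.08), with DCK, which phosphorylates deoxycytidine, at 0.36, the mitochondrial deoxyguanosine kinase DGUOK at -0.25 and TK2 at -0.67. The 6 enzymes that trim deoxynucleotide pools all lay within 1.5-fold, with the dCMP deaminase DCTD at 0.11, the dUTPase DUT at 0.08 and a median of 0.04 (-0.00486 with library totals alone). SAMHD1, the dNTP hydrolase of this list, had 2815 counts with the USP30-AS1 siRNA and 3441 with the control siRNA, a log2 ratio of 0.010.

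The breakdown and folate lists held the genes that were at least 1.5-fold higher. NT5E, the ecto-nucleotidase CD73, was 1.54-fold higher (1.5 to 1.57), with 288 FPKM with the USP30-AS1 siRNA and 184 FPKM with the control siRNA. In that list 3 of 5 lay above 0, with NT5C3A at 0.33 and NT5C3B at -0.35. Its median was 0.16, or -0.10 when genes under the floor were included. Of the folate genes that supply TYMS, MTHFD1 was 1.59-fold higher (1.52 to 1.67) and the mitochondrial SHMT2 lay at 0.48, while the cytosolic SHMT1 lay at -0.36. Of those compared, 3 of 6 lay above 0. Nucleoside and pyrimidine nucleotide transporters had the lowest median of these lists, -0.38, with 1 of 5 above 0. The mitochondrial pyrimidine carriers differed from each other, SLC25A36 at 0.49 and SLC25A33 at -0.48, and the lysosomal nucleoside transporter SLC29A3 lay at -0.46. CMPK2, SLC28A1 and SLC28A3 had 0 counts in both libraries, which allows up to 0.156 CPM with the USP30-AS1 siRNA and 0.127 with the control siRNA.

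The pyrimidine metabolism pathway of the deposited annotation holds 58 genes with a symbol, and 44 passed the floor. None was 2-fold different, 2 were higher and 1 lower by 1.5-fold or more, and 25 lay above 0 with a median of 0.08. The median was again 0.08 over its 34 genes that are not members. Its highest gene was PNP, the purine nucleoside phosphorylase, at 4144 counts with the USP30-AS1 siRNA and 2777 with the control siRNA, 1.84-fold higher (1.75 to 1.93).

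Genes of the cell cycle are given beside the deoxynucleotide enzymes because RRM2, TYMS and TK1 are made as cells enter S phase. In the S phase and proliferation list 11 of 16 genes lay above 0, with a median of 0.19, and 3 were at least 1.5-fold higher: CCNE2 at 0.87, PCNA at 0.69 and CDC6 at 0.65. The other 5 of the 16 lay below 0, the lowest being CCNE1 at -0.34, so the list did not move as 1. Over all compared genes, 5722 of 11530 (49.6%) lay above 0 and 703 (6.1%) were at least 1.5-fold higher. E2F1, an activator of TK1, TYMS and RRM2, had 879 counts with the USP30-AS1 siRNA and 1260 with the control siRNA, a log2 ratio of -0.22. The G1/S regulators had a median of 0.02 (-0.03 with library totals alone). Of these CDK6 was 2.30-fold higher (2.19 to 2.42), CCND1, which encodes cyclin D1, was 2.09-fold lower (2.02 to 2.16), and the CDK inhibitor CDKN1A lay at 0.83. MYC, an activator of CAD, lay at -0.33, with 344 counts with the USP30-AS1 siRNA and 537 with the control siRNA. Listed p53 targets other than RRM2B had a median of 0.14, with FAS at 1.07 (0.83 in FPKM), CDKN1A at 0.83 and TP53INP1 at -0.94. RRM2B lay below 0 while 7 of the 9 compared targets lay above it, TP53I3 and SESN2 by very little. The part of cell cycle differences in the enzyme ratios was not tested.

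**Figure D4:**
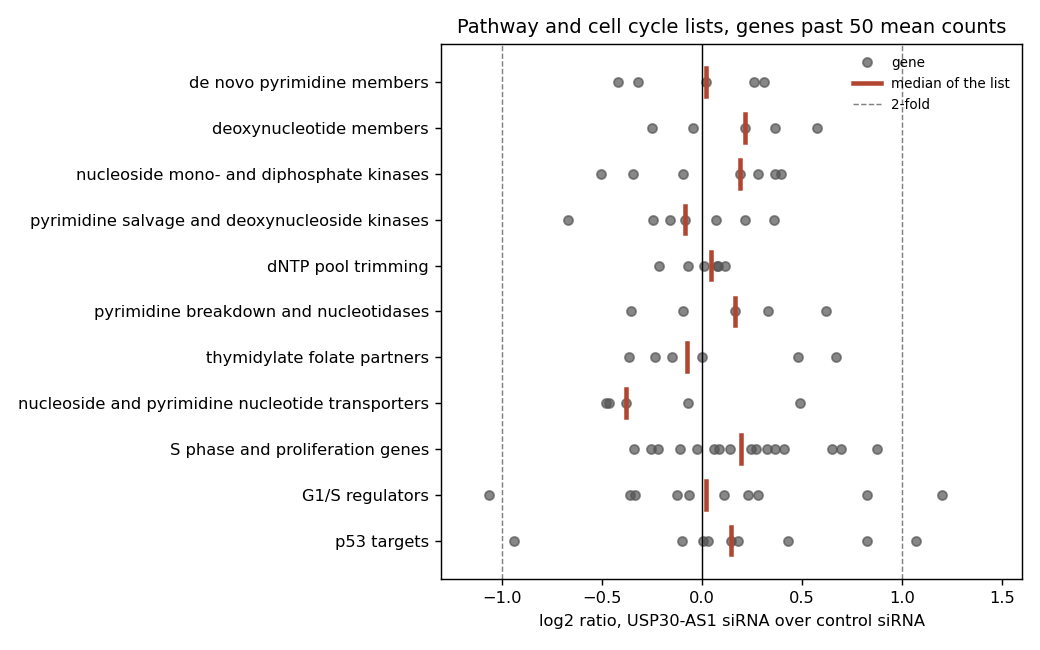
Log2 ratio (USP30-AS1 siRNA over control siRNA, x axis) of each compared gene in the enzyme groups and in the lists of nucleotide metabolism and cell cycle genes (rows); red bars are list medians. Medians run from -0.38 for transporters to 0.22 for the deoxynucleotide enzymes, and points past 2-fold occur in the G1/S and p53 lists only.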

How the data were processed

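One mRNA library was sequenced for each siRNA, against USP30-AS1 or negative control, in MDA-MB-231 cells. Per the labels' protocols, oligo(dT) beads selected mRNA from a Trizol extract, and a NEBNext Ultra RNA kit was used. Tools named in the submitters' processing notes are RSEM, HISAT2, fastp 0.18.0 and StringTie 1.3.1, with GRCh38 as the build. Their roles, the annotation and the strand setting are not given in the sources used here. Per the file headers, the deposited table holds a count and an FPKM per gene and library. The deposited counts are estimated counts (11.4% of values with the USP30-AS1 siRNA and 12.0% with the control siRNA were not whole) and were rounded. The authors' deposited FPKM are normalized for length and depth, with a copy in which 0 is replaced by 0.001. The authors' deposited log2 fold change is the ratio of those copies, and the test behind the authors' deposited p-value and FDR is unstated; none of the 3 was used. The columns are named Si-NC and Si-179. Si-NC matches the control label, and Si-179 was taken as the knockdown because the table is titled for that comparison.

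Counts were scaled by TMM factors of 0.983 (USP30-AS1 siRNA) and 1.017 (control siRNA; edgeR 4.0.16, R 4.3.3). Folds carry 95% Clopper-Pearson intervals and shares Wilson intervals. PCR copies are not independent molecules. Members and lists were chosen with earlier results of these data known. From each list, genes past 2-fold and up to 3 with the largest ratios are named. Not all genes that this rule takes are reported here. SAMHD1, MYC, E2F1, E2F2, CCNE1 and PNP are named outside this rule, after their values were seen. Coordinates and overlaps come from GENCODE release 29, and shared stretches from BLAST 2.17.0. Other calculations used Python 3.11.15 and scipy 1.17.1. Scaling, ratios and intervals were first tested on simulated counts that held counting error alone. Such counts cannot show how the intervals behave under variation between cultures. Alternatives were other scalings (DESeq2 1.42.0 size factors among them), FPKM, pseudocounts and count floors.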

Additional observations from a re-analysis of the deposited data

How the results depend on the processing

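No paired analysis was possible because each group has 1 library, and no replicate could be left out for the same reason. Of 60 member ratios recomputed under other scalings, pseudocounts and FPKM, 57 stayed within the counting interval. The 3 outside it were all in FPKM, for DHODH (-0.73), UMPS (0.11) and RRM2 (0.52). The sign changed for CAD only, to -0.03 with library totals and in FPKM, and the de novo median changed with it. The median of all genes moved by less than 0.1 under every scaling. The median of all 10 members was 0.12, 0.039 in FPKM and 0.021 without carriers of the 3' UTR words described under the other observations; that alternative was added after the data were seen, and it put the deoxynucleotide median at 0.086, since it leaves out RRM2. The number of members past 2-fold was 0 under all alternatives. Over all genes, 703 were higher and 812 lower with a 1.5-fold rule. A floor of 200 counts left 111 genes at least 2-fold lower, against 185 with the floor of 50. The calls lost were genes with mean counts between 50 and 200, where counting error is larger. By FPKM, the share of CTPS1 was 85.3% with the USP30-AS1 siRNA and 79.6% with the control siRNA, that of RRM2 84.2% and 74.7%, and that of TK1 90.1% and 84.3%, since FPKM removes transcript length. The depth limits DHODH most.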

Other observations

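The 3' UTRs of the members were searched for words of 7 bases that an earlier analysis had picked on these same libraries, AACTCCA or ACTCCAA for lower genes and CCTAAGA or CTAAGAA for higher genes. Over 11409 compared genes with an annotated 3' UTR, 20.8% carried a word of the first pair in any coding transcript and 20.7% a word of the second pair. Among the members, RRM2 and UMPS carried a word of the second kind and CTPS2 a word of the first kind, as did TK2, while the other 7 members carried neither. RRM2 and UMPS were the highest members of their groups (log2 ratios 0.57 and 0.31), and CTPS2 lay at -0.32. Because the words were picked on these ratios, this is a description and no independent support. RRM1 (0.36), CTPS1 (0.26), DHODH (-0.42) and RRM2B (-0.25) had ratios of similar size without either word.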
